A study of Mus musculus with 3 samples.

Results

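Hyaluronan, its synthesis and its binding were followed through 6 genes of mouse skin: the synthases Has1, Has2 and Has3, the hyaluronan-modifying protein gene Tnfaip6, the receptor gene Cd44 and the hyaluronidase gene Hyal2. The genes were taken by symbol from the 31053 genes of the matrices, and all 6 were listed. Single-cell RNA-seq was made from skin of C57BL/6 mice aged 7 weeks, in a series on hair growth. The groups used here were metformin, a biguanide used against diabetes, and control, with 1 library each. The labels do not give the number of mice behind a library. A library of mice given Shi-Bi-Man, a herbal preparation, belongs to the series, and its expression was not analysed here. With 1 library per agent, the agent and the library cannot be told apart, so values are set side by side without a test and all intervals are 95% intervals of counting error alone.

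Hyaluronan is a long unbranched sugar chain that fills the space between cells of the dermis and surrounds cells of the living epidermis. The synthases sit in the plasma membrane and push the growing chain out of the cell, from UDP-glucuronic acid and UDP-N-acetylglucosamine. The Tnfaip6 product, TSG-6, is a secreted, inducible protein that binds hyaluronan and moves heavy chains of inter-alpha-inhibitor onto it. CD44 is the main cell surface receptor for hyaluronan, and HYAL2 cuts long chains to shorter ones.

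In the GENCODE annotation of GRCm38, Has1 (ENSMUSG00000003665) lies on the minus strand at chr17:17843323-17855205 and Has2 (ENSMUSG00000022367) on the minus strand at chr15:56665627-56694539. Has3 (ENSMUSG00000031910) lies on the plus strand at chr8:106870242-106884566, Tnfaip6 (ENSMUSG00000053475) on the plus strand at chr2:52038009-52056686, Cd44 (ENSMUSG00000005087) on the minus strand at chr2:102811141-102901665 and Hyal2 (ENSMUSG00000010047) on the plus strand at chr9:107567945-107572779. The longest stretch shared by an exon of Has2 and an exon of the antisense gene Has2os was 98 bases. Has2os is not a row of the matrices. For Has3 the longest stretch was 352 bases, shared with an exon of Chtf8 on the opposite strand. Chtf8 had 2892 UMIs in metformin and 1843 in control over all barcodes. The sources used here do not state whether strand was used in counting, so reads of these stretches cannot be assigned with certainty.

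The promoters of Has1 and Tnfaip6 are shown because levels of both genes varied together over groups of cells, as described further on. RefSeq promoter windows (GRCm38.p6, 250 bases before to 50 after the start of transcription) were matched for 4 of the 6 genes: Has1, Tnfaip6, Cd44 and Hyal2. The bases printed, 5′ to 3′ on the strand of the gene, are those upstream of both the RefSeq and the GENCODE start: 233 bases at chr17:17855206-17855438 on the minus strand and 146 bases at chr2:52037863-52038008 on the plus strand. Capitals mark matches to the CRE motif (TGACGTCA) in Has1 and to the AP-1 motif (TGANTCA) in Tnfaip6, both searched on both strands. A CRE match is not an AP-1 match.
Has1: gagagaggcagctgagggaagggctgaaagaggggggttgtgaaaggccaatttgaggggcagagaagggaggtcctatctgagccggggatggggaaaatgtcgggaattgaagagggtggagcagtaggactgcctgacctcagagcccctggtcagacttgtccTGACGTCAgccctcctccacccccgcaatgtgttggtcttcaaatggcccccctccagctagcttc
Tnfaip6: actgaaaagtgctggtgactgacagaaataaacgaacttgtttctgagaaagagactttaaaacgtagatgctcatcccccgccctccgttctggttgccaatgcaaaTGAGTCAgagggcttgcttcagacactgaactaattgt
The CRE match of Has1 begins 83 bases before the RefSeq start, and 1.79% of the 32851 promoter windows held such a match. The AP-1 match of Tnfaip6 begins 142 bases before the RefSeq start, and 7.81% of the windows held one. Neither motif occurred in the windows of Cd44 and Hyal2. The Hyal2 window begins at chr9:107568913, inside the GENCODE gene, so it covers no base upstream of the GENCODE start. Matching letters do not show that a factor binds there.

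The metformin library held 12092 barcodes and 92341365 UMIs (unique molecular identifiers, each counting 1 captured transcript), and the control library held 12108 barcodes and 71345558 UMIs. After filtering and removal of called doublets, 8817 metformin cells with a median of 5562 UMIs and 9681 control cells with a median of 3557 UMIs were clustered. The kept cells of the 2 libraries shared 27 barcodes. Of 34 clusters, 33 were named from marker genes. The 6 genes and the other hyaluronan genes were left out of the variable genes that made the clusters and were not markers. The 10 top-ranked genes of each cluster also entered the naming. Hyaluronan genes were not left out there, and Acan, Hmmr and Lyve1 were among them. Fibroblast-like cells were 16.7% of metformin cells and 41.5% of control cells, keratinocyte-like cells 55.7% and 32.1%. Levels are given as CPM, the UMIs of a gene per 1000000 UMIs of all cells in the class or cluster. Col1a1, a collagen gene that marks fibroblasts, stood at 12630 and 10582 CPM in fibroblast-like cells of metformin and control, against 12.5 and 12.4 CPM in keratinocyte-like cells.

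**Figure D1:**
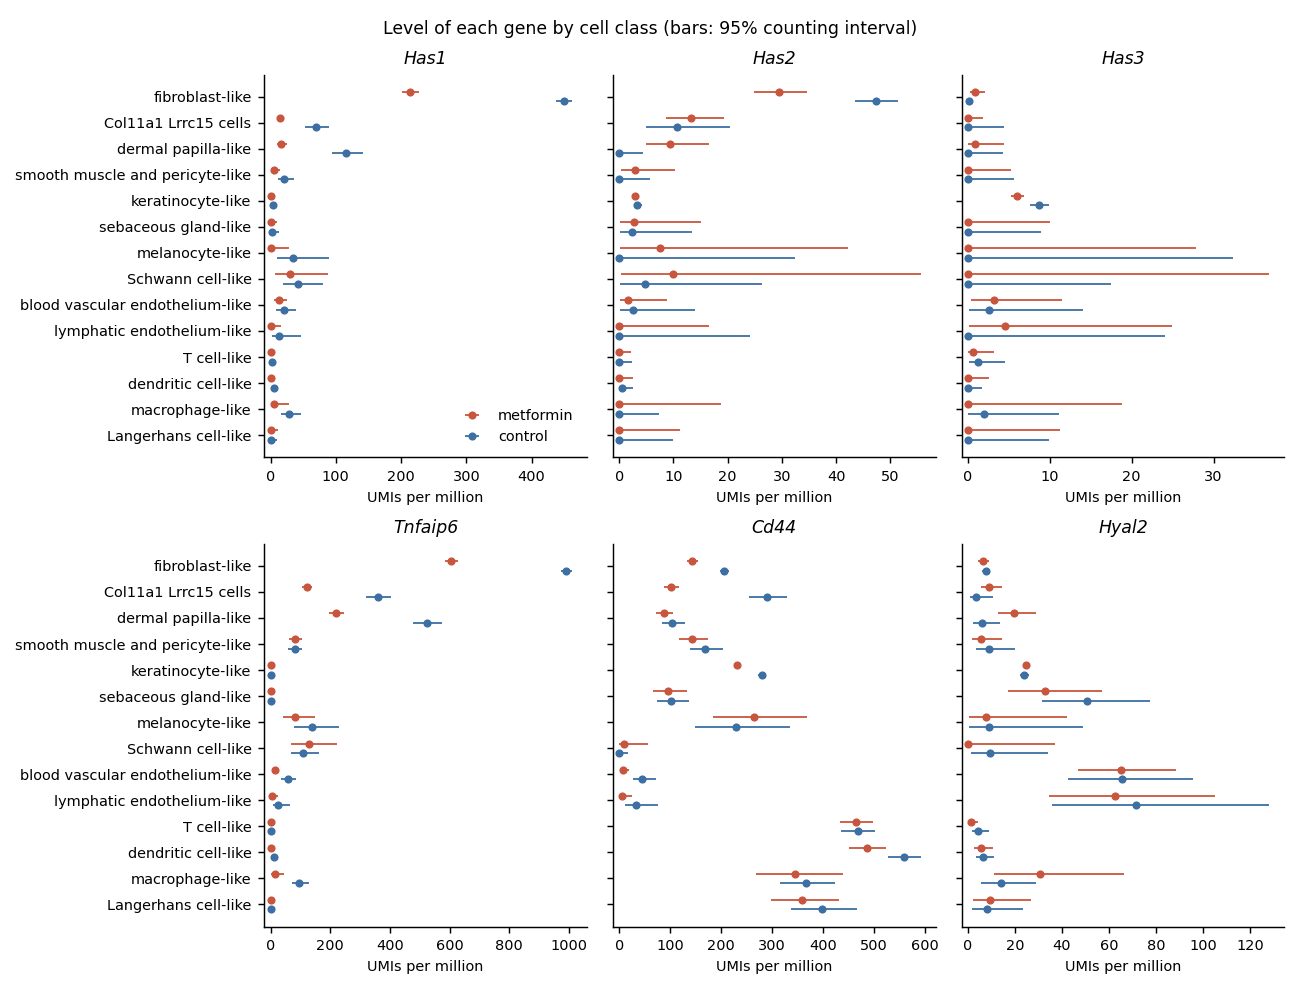
Level of each gene in 14 cell classes of the metformin (red, upper) and control (blue, lower) library, in CPM, with 95% counting intervals. Has1 and Tnfaip6 are highest in fibroblast-like cells, Has3 lies in keratinocyte-like cells, and Hyal2 is highest in endothelium-like cells.

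The 6 genes divided the skin between them. Fibroblast-like cells held most Has1 and Tnfaip6, keratinocyte-like cells held nearly all Has3, and Has2 was found in both. Cd44 was read in many classes and was lowest in endothelium and Schwann cell-like cells, and the level of Hyal2 was highest in endothelium. The plot of levels by class shows these patterns in both libraries.

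Has1, which codes for hyaluronan synthase 1, had 1090 UMIs in 1472 fibroblast-like cells of the metformin library and 5240 UMIs in 4015 fibroblast-like cells of the control library. These were 90.5% and 94.1% of all its UMIs in the cells kept. Its level in fibroblast-like cells was 214 CPM (202 to 227) in metformin and 449 (437 to 462) in control. The intervals are far apart, and the ratio of metformin to control was 0.477 (0.446 to 0.509). At least 1 UMI was seen in 32.7% of metformin and 49.1% of control fibroblast-like cells, at median depths of 3111 and 2670 UMIs. In T cell-like cells, which serve as the background for free RNA, the shares were 0% (0 of 681 cells, where a limit of 3 counts allows up to 0.441% of cells with a UMI) and 0.479%, at median depths of 2244 and 2302 UMIs. With every cell thinned to 1500 UMIs the shares in fibroblast-like cells were 20.7% and 37.0%, leaving out 184 and 621 shallower cells, against 0% and 0.18% of T cell-like cells, leaving out 89 and 69. Thus the share with Has1 lay well above the background in both libraries and was lower in metformin at equal depth.

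Dermal papilla-like cells, the signalling mesenchyme at the base of the follicle, had a Has1 level of 16.5 CPM in metformin and 116 in control. This class joined unlike clusters: the one led by Slc26a7 and Notum held 19 metformin and 264 control cells, and the one led by Hhip and F5 held 304 and 84. Within the Slc26a7 Notum cluster the Has1 level was 177 and 160, and within the Hhip F5 cluster 9.84 and 25.02, in metformin and control. The metformin value of the Slc26a7 Notum cluster rests on 9 UMIs in 3 cells, with an interval of 81.0 to 336. In each library the level was higher in the Slc26a7 Notum cluster than in the Hhip F5 cluster. The part of the unlike cell make-up in the class values was not tested. The cells led by Acan, Lrrc15 and Tnn, called Col11a1 Lrrc15 cells below, had a Has1 level of 14.7 CPM in 347 metformin cells and 69.2 in 227 control cells. Their Col1a1 level was 149% of that in fibroblast-like cells in metformin and 55.6% in control, and their median depths were 5479 and 3298 UMIs. The part of such differences in the Has1, Tnfaip6 and Cd44 ratios of these cells was not tested.

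Within the fibroblast-like class, 5 clusters were told apart by their leading genes. The Has1 level in the Cyp2f2 Cpz cluster was 299 CPM in metformin and 620.2 in control, and in the Tnc Timp1 cluster, which carries the Pi16 Dpep1 markers, 248 and 524. It was 249.6 and 439.7 in the Inmt Sfrp4 cluster, 249.8 and 328 in the Stc1 Igfbp2 cluster, and 97.6 and 234 in the Coch Ctgf cluster. The Coch Ctgf cluster was lowest in each library, and its interval reached that of no other fibroblast-like cluster. The ratio of metformin to control was below 1 in 5 of 5 clusters, at 0.417 to 0.763, and the counting interval lay below 1 in each.

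Tnfaip6 followed Has1. Its level in fibroblast-like cells was 606 CPM (584 to 627) in metformin and 991 (973 to 1009) in control, a ratio of 0.611 (0.587 to 0.636). The UMIs numbered 3081 and 11557, or 82.5% and 91.9% of all its UMIs. At least 1 UMI was seen in 59.0% and 65.8% of fibroblast-like cells, against 0.147% and 0.799% of T cell-like cells. At 1500 UMIs per cell the shares were 40.3% and 54.3%, against 0% and 0.359% of T cell-like cells, so the gap between the libraries was wider at equal depth. Single cells reached 42 Tnfaip6 UMIs in metformin and 55 in control, and 13.4% and 20.4% of fibroblast-like cells held at least 5.

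By cluster, the Tnfaip6 level was highest in the Tnc Timp1 cluster, at 951 CPM in metformin and 1524 in control, and next in the Cyp2f2 Cpz cluster, at 703 and 1216. The Stc1 Igfbp2 cluster had 508 and 533, the Coch Ctgf cluster 366 and 443, and the Inmt Sfrp4 cluster 292 and 474. Ratios were below 1 in 5 of 5 clusters, at 0.578 to 0.953, and the interval reached 1 only in the Stc1 Igfbp2 cluster (0.82 to 1.10). Outside the fibroblast-like class, Tnfaip6 stood at 219.7 and 523 CPM in dermal papilla-like cells. Within their Slc26a7 Notum cluster it was 531 and 639, and within the Hhip F5 cluster 207 and 286. Tnfaip6 stood at 121 and 360.1 in Col11a1 Lrrc15 cells. The ratio in Col11a1 Lrrc15 cells was 0.337 (0.283 to 0.401), between cells that also differed in Col1a1 level and depth, as given above. Smooth muscle and pericyte-like cells had 82.1 and 80.3, with a ratio of 1.02 (0.692 to 1.51), so no difference was detectable there at this depth.

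**Figure D2:**
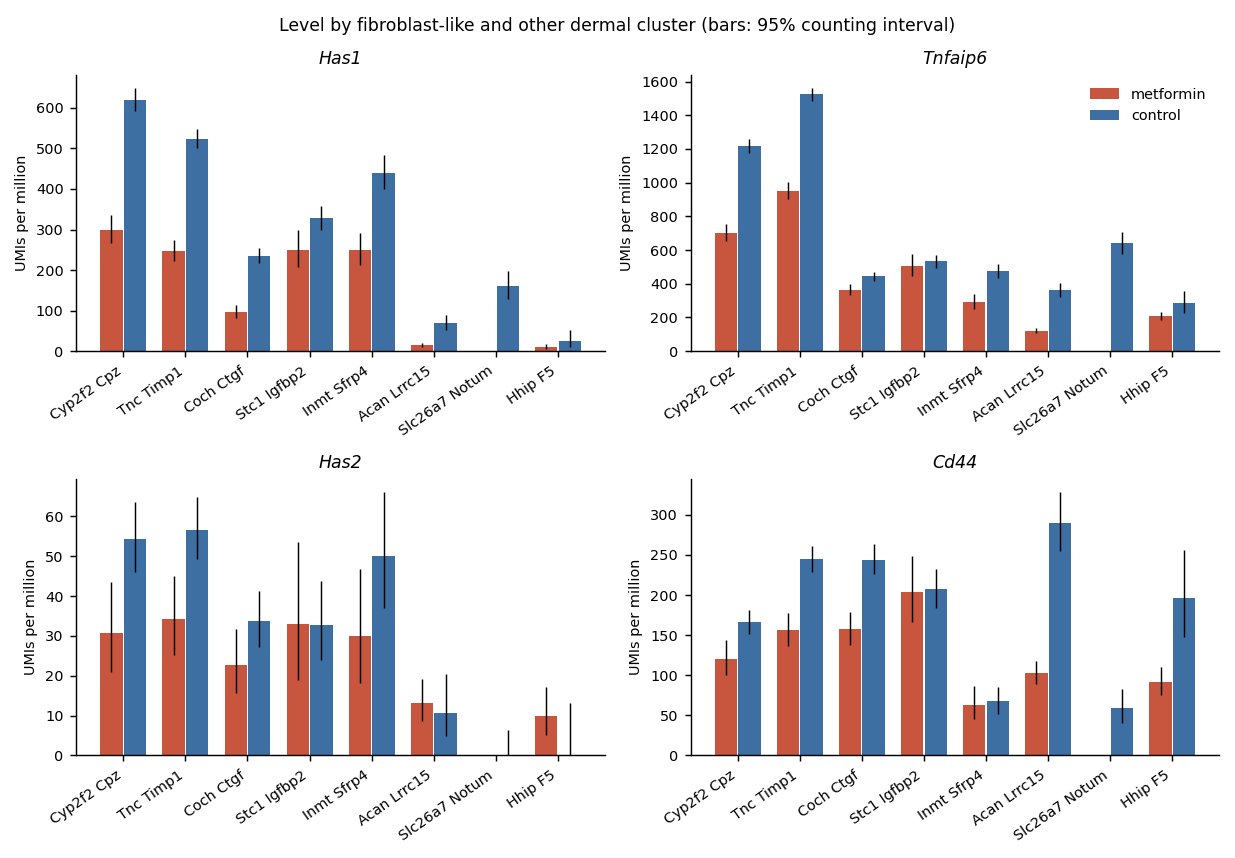
Levels of Has1, Tnfaip6, Has2 and Cd44, in CPM, in the 5 fibroblast-like clusters, the Acan Lrrc15 cluster and the dermal papilla-like clusters led by Slc26a7 Notum and by Hhip F5, for metformin (red, left) and control (blue, right), with 95% counting intervals. Groups under 50 cells are not drawn, which leaves out the 19 metformin cells of the Slc26a7 Notum cluster.

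Has2 is the synthase required for heart development in mouse embryos. Its level in fibroblast-like cells was 29.5 CPM (24.95 to 34.6) in metformin and 47.3 (43.5 to 51.4) in control, a ratio of 0.623 (0.517 to 0.747). The UMIs numbered 150 and 552. No T cell-like cell of either library held a Has2 UMI, which by the same limit allows up to 0.441% and 0.479% of cells with one, whereas 8.90% and 10.3% of fibroblast-like cells did. At 1500 UMIs per cell these shares were 4.35% (3.30 to 5.61) and 5.66% (4.90 to 6.49), and their intervals overlap. Over the 5 fibroblast-like clusters the level lay at 22.7 to 34.1 CPM in metformin and 32.7 to 56.6 in control. Ratios were below 1 in 4 of 5 clusters, and the counting interval lay below 1 in 2 of them, the Cyp2f2 Cpz and Tnc Timp1 clusters. Col11a1 Lrrc15 cells had 26 and 9 Has2 UMIs, at 13.2 and 10.7 CPM. Dermal papilla-like cells had 12 UMIs in metformin and 0 in control, all 12 in the Hhip F5 cluster, which held 84 control cells.

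In keratinocyte-like cells Has2 had 107 UMIs in metformin and 84 in control, and their places differed. In metformin, 55 of the 107 UMIs were in the hair matrix and shaft-like cluster led by Dlx2 and Krt28, at 11.6 CPM in 608 cells. This cluster held 16 control cells and no Has2 UMI among them. In control, 59 of the 84 UMIs were in the basal epidermis-like cluster led by Dlk2 and Fcgbp, at 7.48 CPM in 1029 cells, against 29 UMIs and 2.54 CPM in 1616 metformin cells, a ratio of 0.339 (0.21 to 0.54). The cycling cluster led by Ube2c and Anln had 2.08 CPM in metformin and 11.97 in control, from 6 and 17 UMIs. The hair follicle stem and outer root sheath-like cluster led by Shisa2 and Lhx2 had 5.82 and 8.12. Suprabasal, granular and upper follicle-like clusters held at most 1 Has2 UMI per library. For the whole class the levels were 2.96 and 3.34 CPM, a ratio of 0.885 (0.659 to 1.19).

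That class value depended on which cells were kept. More than 3000 genes were seen in 19.4% of metformin and 12.1% of control barcodes, which the main filter left out. The wider filter has no such limit and allows a mitochondrial share of up to 20%. With the wider filter, keratinocyte-like cells had a Has2 level of 6.59 CPM in metformin and 3.28 in control. Of the 413 metformin UMIs, 280 were in hair matrix, shaft and inner root sheath-like cells, of which there were 1583 in metformin and 37 in control. In these the level was 16.1 and 19.9 CPM, the control value resting on 8 UMIs. Without them the levels were 2.93 and 3.13. With the main filter, leaving out these cells gave 1.77 CPM in metformin and 3.36 CPM in control, a ratio of 0.526 (0.365 to 0.752).

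Has3 is a synthase gene known from epidermis. It had 217 UMIs in keratinocyte-like cells of metformin and 218 of control, which were 96.0% and 96.9% of its UMIs. The level was 5.99 CPM (5.22 to 6.85) and 8.67 (7.55 to 9.90), a ratio of 0.692 (0.571 to 0.839). Fibroblast-like cells held 4 and 2 Has3 UMIs in 1472 and 4015 cells. A UMI was seen in 3.76% and 5.73% of keratinocyte-like cells, at median depths of 7349 and 8109 UMIs, and in 0.147% and 0.319% of the shallower T cell-like cells. Thinned to 1500 UMIs, 0.80% (0.57 to 1.09) of metformin and 1.23% (0.874 to 1.69) of control keratinocyte-like cells held one, beside 0.169% and 0% in T cell-like cells. The keratinocyte-like shares rest on 39 of 4873 and 38 of 3082 cells, and their intervals overlap. The T cell-like shares rest on 1 of 592 and 0 of 557 cells.

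Among the clusters named as epidermis, Has3 was highest in the basal one in each library. The basal epidermis-like cluster had 95 UMIs and 8.32 CPM in metformin and 145 UMIs and 18.4 CPM in control, a ratio of 0.453. The suprabasal epidermis-like cluster led by Stfa1 and Krt16 had 4.58 and 9.42, a ratio of 0.486, and the other suprabasal one, led by Krt1 and Mt4, 1.89 and 1.68. The Flg Hrnr cluster, named granular epidermis-like, held no Has3 UMI in 118 and 219 cells, which allows up to 2.54% and 1.37% of cells with a UMI and sets no limit on cells that express the gene. The hair matrix and shaft-like cluster led by Dlx2 and Krt28 held 59 Has3 UMIs in metformin, at 12.4 CPM, and 1 in the 16 control cells. Thus Has2 and Has3 met in basal and in hair matrix and shaft-like cells. At 1500 UMIs per cell, 2 and 8 basal epidermis-like cells held Has2, 19 and 27 held Has3, and 1 and 0 held both, in metformin and control.

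**Figure D3:**
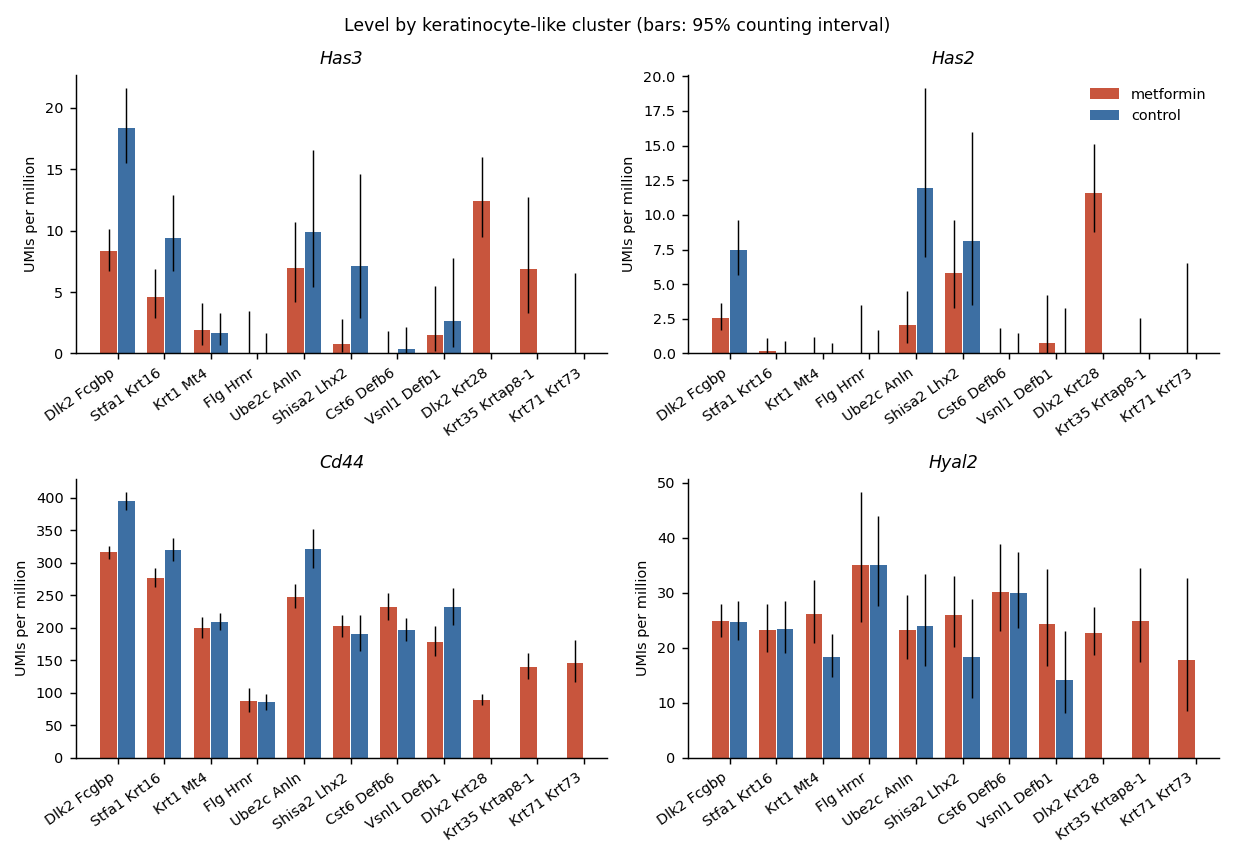
Levels of Has3, Has2, Cd44 and Hyal2, in CPM, in 11 keratinocyte-like clusters named by their leading genes, for metformin (red, left) and control (blue, right), with 95% counting intervals. Groups under 50 cells are not drawn, which leaves only metformin bars for the last 3 clusters, of hair matrix, shaft and inner root sheath. Has3 is highest in the basal cluster of control, and the Cd44 level is lower in the Flg Hrnr cluster than in the basal cluster of each library.

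Cd44 was broad. The level was highest in dendritic cell-like cells, at 486 CPM (451 to 523) in metformin and 559 (528 to 591) in control, and in T cell-like cells, at 465 (434 to 498) and 468 (435 to 502). The 2 classes did not differ beyond their intervals in metformin and did in control. Among the other classes, Langerhans cell-like cells stood at 359 and 397, macrophage-like cells at 346 and 366, melanocyte-like cells at 265 and 228, and keratinocyte-like cells at 231 and 279.5 CPM. Fibroblast-like cells had 143 (133 to 153) and 206 (198 to 215). Among smooth muscle and pericyte-like cells, the cluster led by Nptx2 and Pcp4 had 344 and 429, against 53.3 and 30.2 in the Rgs5 Pln cluster. At the other end, blood vascular endothelium-like cells had 7.94 and 45.3 from 5 and 18 UMIs, lymphatic endothelium-like cells 4.48 and 32.6 from 1 and 5 UMIs, and Schwann cell-like cells 1 UMI and 0 UMIs in 54 and 112 cells.

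In keratinocyte-like cells Cd44 was highest in the basal epidermis-like cluster, at 316 CPM in metformin and 395 in control. It was 277 and 320.4 in the Stfa1 Krt16 cluster, 200.2 and 209 in the Krt1 Mt4 cluster and 87.1 and 85.3 in the Flg Hrnr cluster. The hair matrix and shaft-like cluster led by Dlx2 had 89.4 in metformin. The ratio of metformin to control ran from 0.768 to 1.18 over 8 clusters with at least 50 cells in each library. It was below 1 in 5 of them, with 4 intervals below 1, and above 1 in 3. The 1 interval above 1 was that of the upper hair follicle-like cluster led by Cst6 and Defb6 (1.04 to 1.34). The class ratio was 0.827 (0.801 to 0.854), and without hair matrix, shaft and inner root sheath-like cells the log2 ratio was -0.11 instead of -0.27. With the wider filter and without these cells it was -0.01, so the lower Cd44 level of this class was not seen under that choice. In fibroblast-like cells the ratio was 0.692 (0.636 to 0.753), with 5 of 5 clusters below 1 and 3 of their intervals. In Col11a1 Lrrc15 cells Cd44 stood at 102 and 289.7 CPM, the control value being close to that of keratinocyte-like cells, with a ratio of 0.353 (0.291 to 0.427). In T cell-like cells the ratio was 0.995 (0.90 to 1.10).

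Hyal2 codes for a hyaluronidase anchored to the cell surface. The level was highest in blood vascular endothelium-like cells, at 65.1 CPM (46.7 to 88.4) in metformin and 65.4 (42.8 to 95.9) in control, and in lymphatic endothelium-like cells, at 62.7 and 71.7. The intervals of the 2 classes overlap, so their order is not settled. Sebaceous gland-like cells had 32.6 and 50.7, keratinocyte-like cells 24.9 (23.3 to 26.5) and 24.0 (22.1 to 26.0), and fibroblast-like cells 6.29 (4.30 to 8.88) and 7.63 (6.13 to 9.39). Most UMIs came from keratinocyte-like cells, with 900 and 603. Over their clusters of at least 50 cells the level was 17.8 to 35.02 CPM in metformin and 14.2 to 35.04 CPM in control, and it was highest in the Flg Hrnr cluster in each library. The ratio of metformin to control ran from 0.97 to 1.71 over 8 clusters, and 1 interval lay above 1, in the Krt1 Mt4 cluster (1.04 to 1.95). At 1500 UMIs per cell, 12.2% and 10.2% of blood vascular endothelium-like cells held a Hyal2 UMI, leaving out 30 and 29 cells, against 3.37% and 3.54% of keratinocyte-like cells. Cd44 in the same blood vascular cells stood at 7.94 (2.58 to 18.5) CPM in metformin and 45.3 (26.9 to 71.6) CPM in control, from 5 and 18 UMIs. At 1500 UMIs per cell, 2 of 147 metformin and 1 of 98 control cells held a Cd44 UMI, so the shares showed no such gap.

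Metformin was compared with control over all genes of a class. In fibroblast-like cells 5 of the 6 genes had at least 20 UMIs over both libraries, and Has3, with 4 and 2 UMIs, did not. Of these, 3 (Has1, Has2 and Tnfaip6) were lower in metformin by at least 1.5-fold, against 7.33% of 12137 genes, and 0 were higher by that factor, against 7.55%. The log2 ratio had a median of -0.68 over the 5 genes and of 0.04 over all genes. The log2 ratio of Has1 was -1.07, and 1.94% of all genes had a lower ratio. In keratinocyte-like cells 2 of 6 genes, Has1 and Tnfaip6, were lower by at least 1.5-fold, against 7.73% of 13331 genes, and 0 were higher, against 16.9%. Both were low there, with 1.24 and 3.98 CPM for Has1 and 0.801 and 2.70 for Tnfaip6. These rest on 45 and 100 Has1 UMIs and on 29 and 68 Tnfaip6 UMIs. Fibroblast-like cells, which held most UMIs of both genes, were 16.7% of metformin and 41.5% of control cells. The part of free RNA in these keratinocyte-like ratios was not tested. Over all genes of keratinocyte-like cells the median was 0.12 on this scale, and relative to it Has3 lay at -0.66 and Cd44 at -0.40.

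**Figure D4:**
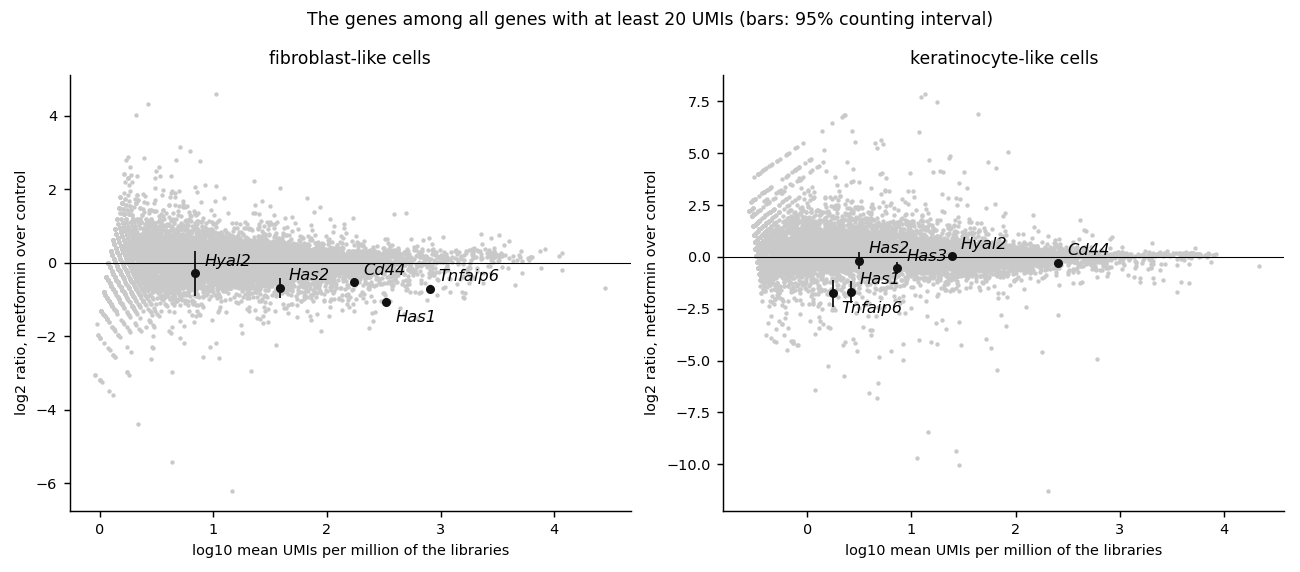
Log2 ratio of metformin over control against the mean level (log10 CPM) for all genes with at least 20 UMIs (grey), in fibroblast-like (left) and keratinocyte-like (right) cells. The black points are the genes described here, with 95% counting intervals: in fibroblast-like cells Has1, at -1.07, Tnfaip6, at -0.71, and Has2, at -0.68, lie lowest.

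Other values moved with these. A list of 14 immediate early and stress genes, such as Fos, Egr1 and Nr4a1, chosen after the levels were seen, summed to 9785 CPM in metformin and 14745 in control in fibroblast-like cells. Of its genes, 14 of 14 had a ratio below 1, as did 45.3% of all genes, the median being -0.57 on the log2 scale, and Nr4a1 had a ratio of 0.381. Within the 5 clusters the sum was 6841 to 11748 in metformin and 13211 to 16301 in control, so every control cluster lay above every metformin cluster. In keratinocyte-like cells the sums were 11406 and 13406, and 12 of 14 genes had a ratio below 1, as did 35.6% of all genes. The mitochondrial share of fibroblast-like cells was 2.17% and 1.40%. The part of these values in the lower Has1, Has2 and Tnfaip6 levels was not tested.

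Free RNA was described beside abundant fibroblast genes. The Has1 level in keratinocyte-like cells was 0.58% of that in fibroblast-like cells in metformin and 0.885% in control. For Tnfaip6 it was 0.132% and 0.273%, for Col1a1 0.0989% and 0.117%, and for Dcn 0.999% and 0.148%. In macrophage-like cells Has1 stood at 2.37% and 6.24% and Tnfaip6 at 2.52% and 9.69% of the fibroblast-like level, beside 2.72% and 4.89% for Dcn and 2.83% and 7.55% for Lum. These values rest on 1 and 14 Has1 UMIs and on 3 and 48 Tnfaip6 UMIs. In control, the keratinocyte-like percentages of Has1 and Tnfaip6 lay above those of the fibroblast markers. The macrophage-like percentage of Tnfaip6 was higher too, but its interval (7.15 to 12.9) overlapped that of Lum (6.25 to 9.03), so their order is not settled. Has2 in keratinocyte-like cells stood higher, at 10.02% and 7.06% of the fibroblast-like level. The part of free RNA and of doublets in these low levels was not tested.

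Fibroblast-like cells were set against keratinocyte-like cells within each library. Has1, Has2 and Tnfaip6 were at least 2-fold higher in fibroblast-like cells in each library, 3 of 6 genes, against 25.7% of 13517 genes in metformin and 30.6% of 13384 genes in control. Has3 and Hyal2 were at least 2-fold lower, 2 of 6 genes, against 19.4% in metformin and 18.2% in control. The ratio of fibroblast-like to keratinocyte-like cells was 172 (128 to 238) in metformin and 113 (92.7 to 139) in control for Has1, and 756 (525 to 1131) and 367 (289 to 472) for Tnfaip6. For Has2 it was 9.98 (7.73 to 12.9) and 14.2 (11.2 to 18.1). Has3 had 0.131 (0.035 to 0.341) and 0.0198 (0.00238 to 0.0723), resting on 4 and 2 UMIs in fibroblast-like cells. Hyal2 had 0.253 and 0.318, and Cd44, which did not reach the 2-fold mark, 0.617 (0.572 to 0.666) and 0.737 (0.704 to 0.772).

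Has1 and Tnfaip6 were often seen in the same cells. Among fibroblast-like cells thinned to 1500 UMIs, Has1 was seen in 32.4% (28.4 to 36.6) of 519 metformin cells with a Tnfaip6 UMI and in 12.7% (10.5 to 15.3) of 769 without. In control it was seen in 47.3% (45.0 to 49.7) of 1844 cells with and in 24.6% (22.5 to 26.9) of 1550 without. The share was higher in cells with Tnfaip6 in each of the 5 clusters of each library. The difference was 3.63 to 29.3 percentage points in metformin and 7.47 to 25.3 in control. It was smallest in the Coch Ctgf cluster of metformin, at 10.6% of 123 cells with and 6.94% of 245 without. Intervals were not computed by cluster, so the smaller differences may lie within counting error. In cells without a Tnfaip6 UMI the share was still lower in metformin. Has2 was seen in 5.97% and 6.83% of cells with Tnfaip6 and in 3.25% and 4.26% of those without, in metformin and control. The cells of a library are not replicates, and these shares describe the libraries.

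**Figure D5:**
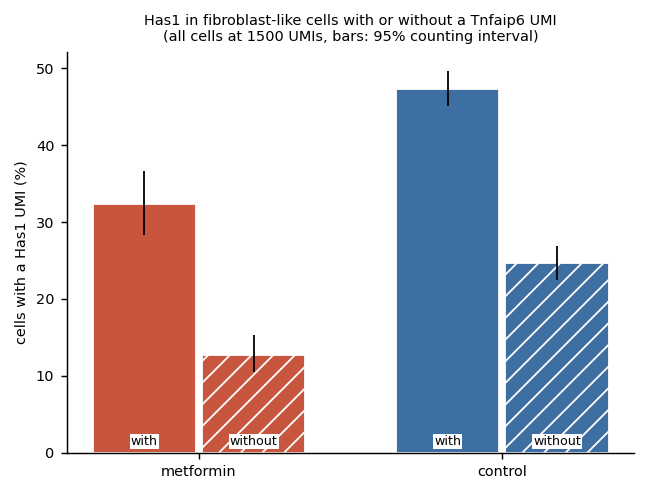
Share of fibroblast-like cells with a Has1 UMI (%), among cells with (plain) and without (hatched) a Tnfaip6 UMI, in metformin (red) and control (blue), all cells thinned to 1500 UMIs, with 95% exact binomial intervals. The share is 32.4% against 12.7% in metformin and 47.3% against 24.6% in control.

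Genes with the most similar pattern were sought over 57 groups of cells, each a cluster in 1 library with at least 50 cells. Groups of 1 library share that library, so the correlations are a description. For Has1 they were Loxl1 (Pearson's r = 0.94), a crosslinking enzyme of elastic fibres, Tnfaip6 (0.94) and Scara5 (0.93). For Tnfaip6 they were Loxl1 (0.96), Pcolce (0.95), which enhances procollagen processing, and Dpt (0.95), the matrix protein dermatopontin. For Has2 they were Glt8d2 (0.84), Clec11a (0.82) and Ugdh (0.82), the enzyme that makes UDP-glucuronic acid. For Has3 they were Bnc1 (0.76), the basal keratinocyte factor basonuclin, Gm13010 (0.73) and Txndc17 (0.73), for Cd44 Abracl (0.77), Tpt1 (0.72) and Arf6 (0.71), and for Hyal2 Prrg2 (0.83), Efna1 (0.75) and F11r (0.74). Among the 6 genes themselves, Has1 and Has2 had r = 0.70, Has2 and Tnfaip6 r = 0.63 and Has2 and Has3 r = 0.02, whereas Cd44 had r between -0.27 and 0.07 with each of the others.

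Of a list of 34 other hyaluronan genes, 16 had at least 20 UMIs in fibroblast-like cells. Against the shares of all genes given above, 2 were lower in metformin by at least 1.5-fold and 1 was higher, and their median log2 ratio was -0.17. Among the 7 genes that supply the sugar precursors, Gfpt2, which feeds the hexosamine pathway, had 119 CPM in metformin and 181 in control, a ratio of 0.655 (0.598 to 0.718). Ugdh had 222 and 275, a ratio of 0.807, and Uap1, which makes UDP-N-acetylglucosamine, 160.2 and 219.6, a ratio of 0.73. Ugp2 had 99.1 and 111, and the other 3 of the 7, Gfpt1, Gnpnat1 and Pgm3, had ratios of 1.15 (1.02 to 1.31), 1.15 (0.935 to 1.40) and 1.13 (0.875 to 1.46). The median log2 ratio of the 7 was -0.17, so they did not all lie on the same side. Of the degrading enzymes, Hyal1 had 1.18 and 2.92 from 6 and 34 UMIs, and Tmem2 5.11 and 6.602. Of the receptors, Tlr4 had 15.3 and 17.4, Tlr2 10.8 and 13.2 and Layn, which codes for layilin, 12.97 and 13.98.

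Partners of the hyaluronan matrix did not all go the same way. Itih5, a heavy chain of the inter-alpha-inhibitor family, had 96.3 CPM in metformin and 51.9 in control fibroblast-like cells, a ratio of 1.86 (1.64 to 2.10), and 468.5 and 274 in Col11a1 Lrrc15 cells. Ptx3, which codes for the TSG-6 partner pentraxin 3, had 46.6 and 32.6, a ratio of 1.43 (1.21 to 1.69). Vcan, which codes for the hyaluronan-binding proteoglycan versican, had 193 and 201 in fibroblast-like cells and 3068 and 684 in dermal papilla-like cells, whose clusters differ between the libraries. Hapln4, a link protein gene, had 1.18 and 1.63 from 6 and 19 UMIs. Acan, which codes for aggrecan and is itself a leading gene of the Col11a1 Lrrc15 cells, had 184 and 75.1 there. In keratinocyte-like cells 15 of the 34 genes had at least 20 UMIs. Of these, 4 were higher by at least 1.5-fold, against 16.9% of all genes, and 1 was lower, against 7.73%, with a median log2 ratio of -0.01. The 4 were Ugdh (31.4 and 19.7 CPM), Hmmr (13.1 and 5.33), a gene of dividing cells, Vcan (1.82 and 0.676) and Itih5 (8.26 and 4.57), and the other was Gfpt2 (0.193 and 0.557). Hair matrix, shaft and inner root sheath-like cells of this class were nearly all from metformin. Without them, an alternative chosen after seeing the data, 3 of 14 genes were higher, against 8.98% of all genes, and 1, Tlr2, with 9 and 14 UMIs, was lower, against 6.87%. The ratio was then 1.42 (1.27 to 1.60) for Ugdh, 2.14 (1.74 to 2.65) for Hmmr, 1.65 (0.893 to 3.16) for Vcan and 1.91 (1.52 to 2.41) for Itih5. Cycling cells numbered 337 in metformin and 161 in control, and their part in these values was not tested. In the whole class Uap1 had 43.6 and 61.2, Ugp2 46.8 and 48.8, Hyal1 4.17 and 4.85 and Tmem2 12.1 and 15.9 CPM in these cells, and none of the 4 reached the mark. Lyve1, the hyaluronan receptor of lymphatic vessels, stood at 1017 and 1069 in lymphatic endothelium-like cells.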

How the data were processed

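The values are raw counts: per the file headers, the authors ran Cell Ranger 4.0.0 and deposited UMIs for each gene in each barcode, and the submitters' processing notes name the build mm10 (GRCm38). Other settings of the counting were not given in the sources used here. An extraction protocol in the labels names another species, while the gene identifiers are those of mouse. The 6 genes and all lists were chosen with earlier results of these data known. Barcodes were kept if 300 to 3000 genes were seen, with 800 or more UMIs and a mitochondrial share of up to 8%. Scrublet (expected rate 8%) was applied to each library in scanpy 1.11.5, and called doublets were removed: 297 metformin and 241 control cells. Counts scaled to 10000 per cell were clustered over 2000 variable genes, 30 principal components and 20 neighbours with leidenalg 0.10.2 at resolution 1, leaving out the hyaluronan genes. Clusters were named from listed markers by a rule set after the clusters were seen. Summed counts were divided by all UMIs of the class, with exact Poisson, Clopper-Pearson and conditional binomial intervals (Python 3.11.15, numpy 2.4.6, scipy 1.17.1). Only the conditional binomial interval was checked, on Poisson counts simulated for a single cluster. Such counts follow the model of that interval, so the check does not cover spread between cells. Ratios needed 20 UMIs over both groups; the folds marked were 1.5 between libraries and 2 between classes, a 0 counted as 3 UMIs in a ratio over all genes, and the limit beside a count of 0 is 3 counts. Thinning drew 1500 UMIs per cell. Genes named are all 6 genes, the 2 or 3 listed genes with most UMIs per sublist and any past the fold, and the 3 most alike genes by Pearson's r of log2(CPM + 1) among genes with at least 200 UMIs. The alternatives were a wider filter with no upper gene limit and up to 20% mitochondrial counts, doublets kept, a mean over cells, other clusterings, another scaling, leaving out hair cells, thinning, a lower UMI minimum and another pseudocount. The immediate early genes were listed after the data were seen. Gene names came from the matrices, positions from GENCODE and promoters from RefSeq.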

Additional observations from a re-analysis of the deposited data

How the results depend on the processing

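No paired analysis was possible because metformin and control have 1 library each. Values below are log2 ratios unless stated. Clustering each library alone, or at Leiden resolution 2, moved no value beyond its counting interval, and 90 of 94 alternative values of metformin over control kept their sign. The exceptions were Has2 in keratinocyte-like cells and 3 values of Hyal2 there, at -0.07 to -0.02 against 0.05. With the wider cell filter, metformin over control was -1.18 for Has1 in fibroblast-like cells (main -1.07) and, in keratinocyte-like cells, 1.004 for Has2 (-0.18) and -0.21 for Has3 (-0.53); without hair matrix, shaft and inner root sheath-like cells, it was -0.93 for Has2 and -0.11 for Cd44, and with the wider filter as well (chosen after seeing the data) -0.013 for Cd44 (-0.27). Divided by the median ratio of all genes, Cd44 in keratinocyte-like cells was -0.40. Of the other alternatives chosen after seeing the data, equal weights for the fibroblast-like clusters gave -0.92 for Has1, -0.50 for Tnfaip6 (-0.71) and -0.37 for Cd44 (-0.53). Thinning to 1500 UMIs gave -0.82 for Tnfaip6 in fibroblast-like cells and, in keratinocyte-like cells, -2.25 for Has1 (-1.68) and -0.80 for Tnfaip6 (-1.75).

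Fibroblast-like over keratinocyte-like cells kept its sign throughout. With the wider filter it was 6.98 for Has1, 2.19 for Has2, 8.91 for Tnfaip6 and -0.52 for Cd44 in metformin, and 8.01 for Tnfaip6 and -0.29 for Cd44 in control. With doublets kept it was 6.59 for Has1 and 7.62 for Tnfaip6 in metformin and 5.98 and 6.34 in control. As a mean over cells it was 7.94 for Has1 and -0.81 for Cd44 in metformin and -0.54 for Cd44 in control. Thinning changed the difference in the share of cells with a UMI, metformin minus control, to -14.0 points for Tnfaip6 in fibroblast-like cells (main -6.81) and to -0.433 points for Has3 in keratinocyte-like cells (-1.97). The causes were not tested. With log2(CPM + 10), Has1 and Has2 kept 0 and Hyal2 kept 1 of their 3 most alike genes. With a minimum of 5 UMIs, 4 of 22 other hyaluronan genes were higher and 3 lower in fibroblast-like cells, against 1 and 2 of 16, and 5 and 3 of 20 in keratinocyte-like cells, against 4 and 1 of 15. The share of all genes past the fold was computed only for the minimum of 20 UMIs, so the counts at 5 UMIs cannot be set against it.

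Without hair cells the median of the other hyaluronan genes in keratinocyte-like cells was 0.015 (main -0.01). Depth limits the shares of cells with Has2, Has3 or Hyal2, since 64.7% to 87.3% of the fibroblast-like or keratinocyte-like cells with a UMI held a single one.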
